A study of Mus musculus with 21 samples.

Results

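Neuroligins and neurexins are the adhesion proteins that hold both sides of a synapse together, and 5 of their genes (Nlgn1, Nlgn2, Nlgn3, Nrxn2 and Nrxn3) were followed in the adult hippocampus after maternal separation (MS) or standard rearing (SR). The genes were chosen by family membership, with earlier results of these data known. They are 5 of 55487 genes in the count table, and 5 of 5 passed the filter on low counts, which left 18146 genes to test. Other genes of the families were not analysed here.

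Neuroligins sit in the postsynaptic membrane and bind neurexins of the presynaptic membrane across the cleft. Neuroligin 1 is best known at excitatory synapses, neuroligin 2 at inhibitory synapses and neuroligin 3 at both. Each neurexin gene gives long alpha and short beta forms from separate promoters, and alternative splicing of these forms sets which postsynaptic or secreted ligand they bind.

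Male C57BL/6 wild-type mice were raised in litters of both sexes. In MS, whole nests were taken from the dam for 4 h per day from postnatal day 10 to 17 and most nesting material was removed from the home cage, so that separation and scarce nesting cannot be told apart. SR nests stayed with the dam. Hippocampi were taken at 10 weeks, and 1 poly-A RNA library was sequenced from each of 9 MS and 12 SR mice. The labels name no nest, so mice were ordered into 7 sets of 3 consecutive animal numbers, of which sets A to C are MS and sets D to G are SR. Sets A, B, D, E and F have numbers of a first range and sets C and G of a second range, called cohorts here. Mice of a set may be littermates, so p-values over mice may be too small.

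Libraries held 17276810 to 30449055 counts in total. The MS mouse A2 stood apart, with a score of 27.1 on the first principal component of the 500 most variable genes against -12.2 to 11.9 in the other 20 mice. Its summed level of striatal markers was 1298 CPM (a gene's counts divided by the library total after TMM normalization and scaled) against at most 431 CPM in any other mouse. The other mice had a striatal median of 50.5 CPM in MS and 46.8 CPM in SR, with highest values of 431 and 270 CPM. A2 was thus not the only mouse far above the median. The dentate gyrus markers of A2 summed to 148 CPM against at least 297 CPM. A2 was left out of the fit, which held 8 MS and 12 SR mice, and its values are given beside the results. Member CPM of A2 came from a normalization over all 21 libraries, and that of the other mice from one over the 20. The neuronal markers Rbfox3, Snap25, Map2, Tubb3 and Stmn2 were present in every library.

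The members differ in how their genes are built. On GRCm38, Nrxn3 (ENSMUSG00000066392) spans 1612.1 kb of the forward strand of chromosome 12 (88722876 to 90334935), and Nlgn1 (ENSMUSG00000063887) spans 906.2 kb of the reverse strand of chromosome 3 (25426215 to 26332460). Nrxn2 (ENSMUSG00000033768) spans 125.4 kb of the forward strand of chromosome 19 (6418731 to 6544169). Nlgn3 (ENSMUSG00000031302) lies on the forward strand of the X chromosome (101299168 to 101325963, 26.8 kb), and Nlgn2 (ENSMUSG00000051790) on the reverse strand of chromosome 11 (69823122 to 69837784, 14.7 kb). Their exons join to 5785 bases in Nlgn2, 9271 in Nlgn3, 12605 in Nrxn3, 13422 in Nlgn1 and 13812 in Nrxn2, and Nrxn2 has the most annotated transcripts, 18. Counts were summed over all transcripts of a gene, so alpha and beta forms and splice variants were not separated.

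Promoter sequence is shown for an upstream start of Nlgn1, for Nlgn2 and for an internal start of Nrxn3. These 3 genes had a matched entry among the promoter sequences used. Nlgn3 and Nrxn2 had none, so their windows were not analysed here. The 250 bases before the start are from RefSeq (GRCm38.p6), read 5' to 3' on the strand of the gene with CpG pairs in capitals. They lie at chr3:26331910-26332159 (reverse), chr11:69837785-69838034 (reverse) and chr12:89812233-89812482 (forward).
Nlgn1: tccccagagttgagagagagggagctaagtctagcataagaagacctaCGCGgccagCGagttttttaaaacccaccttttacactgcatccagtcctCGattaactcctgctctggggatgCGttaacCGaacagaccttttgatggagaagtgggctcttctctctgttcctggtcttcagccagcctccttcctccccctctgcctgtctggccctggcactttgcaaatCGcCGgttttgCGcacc
Nlgn2: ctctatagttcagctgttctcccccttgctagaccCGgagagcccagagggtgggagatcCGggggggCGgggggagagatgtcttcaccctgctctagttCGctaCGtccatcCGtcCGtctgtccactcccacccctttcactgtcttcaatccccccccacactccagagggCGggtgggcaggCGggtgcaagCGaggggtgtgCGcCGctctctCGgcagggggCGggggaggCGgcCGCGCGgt
Nrxn3: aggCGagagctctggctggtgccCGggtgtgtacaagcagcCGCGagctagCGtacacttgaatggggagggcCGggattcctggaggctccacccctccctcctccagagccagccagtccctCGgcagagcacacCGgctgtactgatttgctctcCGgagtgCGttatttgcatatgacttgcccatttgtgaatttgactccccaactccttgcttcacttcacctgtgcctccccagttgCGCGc
The Nlgn2 window holds 18 CpG pairs at a GC content of 67.6%, the Nrxn3 window 12 at 60.0% and the Nlgn1 window 9 at 53.6%. The median over 32851 mouse promoters is 6 CpG pairs and 52.4% GC. A further Nlgn1 start and 2 further Nrxn3 starts have 2 to 5 CpG pairs. On both strands, a GC-box (GGGCGG) was found in the Nlgn2 window only, and 32.7% of all promoters hold one. A TATA motif (TATAAA, in 12.4% of promoters), an E-box (CACGTG, 6.02%), a cAMP response element (TGACGTCA, 1.55%) and the NRF1 core motif (0.782%) were not found in any of the 6 windows of these genes. The windows describe the genes and were not tested against the levels.

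Per exon length, the gene of the inhibitory-synapse neuroligin was the most abundant. In TPM (a share of the library's transcripts, from counts divided by the joined exon length), Nlgn2 had 161 ± 10.7 in MS (SD, n = 8) and 165 ± 6.95 in SR (SD, n = 12). Nrxn2 followed with 81.1 ± 6.58 in MS and 81.9 ± 4.30 in SR, and Nrxn3 with 58.7 ± 4.60 in MS and 63.9 ± 2.61 in SR. Nlgn3 had 17.7 ± 1.48 and 18.9 ± 1.11, and Nlgn1 15.3 ± 1.71 and 17.1 ± 1.57. The order of the means was the same in both groups. It rests on the joined exon length, which can exceed the length of the transcripts present. By CPM, not divided by length, Nrxn2 was above Nlgn2, with means over the 20 mice of 332 and 279 CPM. Over the 20 mice the range of Nlgn2 (138 to 177 TPM) did not overlap that of Nrxn2 (68.5 to 90.9), and Nrxn2 and Nrxn3 (53.9 to 70.1) overlapped only at their edges. Nlgn3 (15.7 to 20.9 TPM) and Nlgn1 (13.2 to 20.3) overlapped over most of their ranges. Within mice, the ratio of Nlgn1 to Nlgn3 per exon length was 0.870 ± 0.0926 in MS (0.711 to 1.03) and 0.906 ± 0.0814 in SR (0.769 to 1.07). Its medians were 0.878 and 0.914, so Nlgn1 was the lower of the pair in most mice but not in all. The ratio of Nlgn1 to Nlgn2 per exon length was 0.0957 ± 0.0131 in MS and 0.104 ± 0.00966 in SR, and that of Nrxn2 to Nrxn3 was 1.39 ± 0.138 and 1.28 ± 0.0665.

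**Figure D1:**
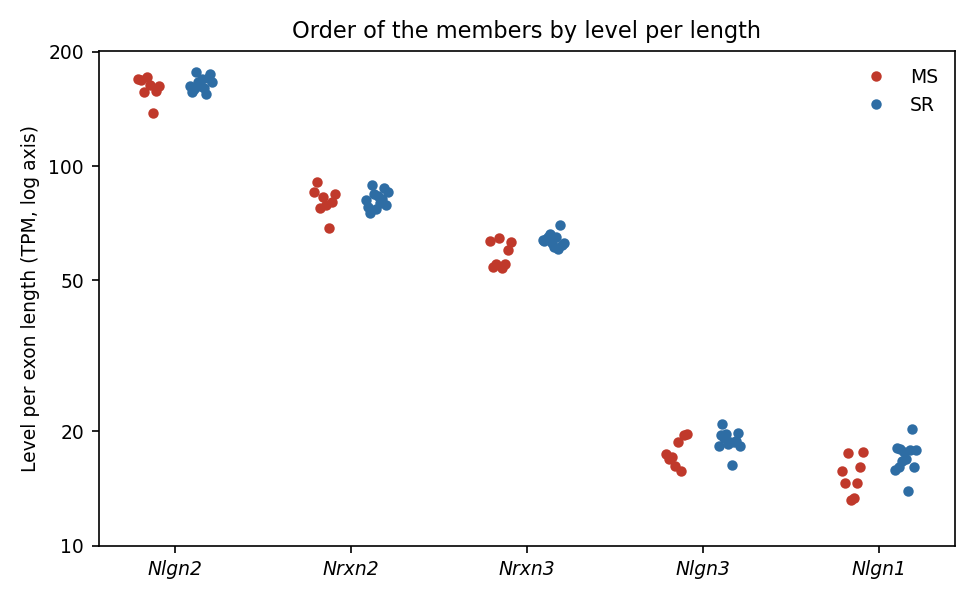
Level per exon length (TPM, log axis) of the 5 genes, with 1 point per mouse for 8 MS and 12 SR mice. Nlgn2 lies above all other members between 138 and 177 TPM, and Nlgn3 and Nlgn1 share the range from 15.7 to 20.3 TPM.

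The comparison of MS with SR asked whether separation left a lasting difference in these genes. The mean level was lower in MS for 5 of 5 members, where 49.7% of all genes tested had a log2 fold change below 0. Among 4699 genes with joined exons as long as those of the members, 2785 had one below 0. No member was called by edgeR's quasi-likelihood test at an adjusted p under 0.05 over all genes (background 0.011%, 2 of 18146 genes, both higher in MS). At an unadjusted p under 0.05, 3 of 5 members (Nrxn3, Nlgn1 and Nlgn3) were lower in MS, against 4.92% of all genes lower at that limit, and 2095 genes (11.5%) passed it in either direction. The 5 differences had a median of -0.11 on the log2 scale, and all genes tested had a median of 0.00084.

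Nrxn3, a presynaptic neurexin, had the smallest p of the 5. The 8 MS mice had 228 and 198 CPM in set A, 229, 199.8 and 203 CPM in set B, and 217, 236 and 224 CPM in set C. The 12 SR mice had 240.1, 247 and 236 CPM in set D, 226, 241 and 233 CPM in set E, 244, 241 and 241 CPM in set F, and 259.7, 227 and 229 CPM in set G. All 8 MS mice lay below the SR median of 241 CPM and 5 of them below the lowest SR mouse, while the other 3 lay inside the SR range. The share of all genes with as little overlap was not counted. The MS mouse A2, outside the fit and normalized apart from the others, had 265 CPM and 67.3 TPM. The SR mouse G1 had 259.7 CPM and 70.1 TPM, so A2 was highest by CPM but not by TPM. The means were 217 ± 14.7 CPM in MS (SD, n = 8) and 239 ± 9.45 CPM in SR (SD, n = 12), a log2 fold change of -0.14 (SE 0.037) or -9.11% (95% interval -13.8% to -4.21%). By edgeR the unadjusted p was 0.000973, rank 111 of all genes, and the adjusted p was 0.158. By DESeq2's Wald test the adjusted p was 0.0312 at a log2 fold change of -0.14, so that the call depends on the test; DESeq2 called 134 of 13871 genes (0.966%). Within edgeR the adjusted p was 0.0497 without the MS mouse C2 and 0.0256 without set C, and 0.364 with A2 added, where the log2 fold change was -0.10.

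Nlgn1, the excitatory-synapse neuroligin, had the largest difference and also the widest spread. The MS mice had 49.5 and 52.2 CPM in set A, 60.6, 57.4 and 68.9 CPM in set B, and 61.1, 67.4 and 66.6 CPM in set C. The SR mice had 70.4, 66.0 and 70.8 CPM in set D, 66.6, 54.9 and 64.5 CPM in set E, 64.2, 73.1 and 64.2 CPM in set F, and 80.0, 71.6 and 69.7 CPM in set G. The 2 mice of set A were the lowest of all 20, and the other MS mice lay within the SR range. A2, the remaining mouse of set A, had 48.6 CPM. The means were 60.5 ± 7.13 CPM in MS and 68.0 ± 6.16 CPM in SR. The log2 fold change was -0.17 (SE 0.063), or -11.1% (95% interval -18.8% to -2.64%), with an unadjusted p of 0.0134 and an adjusted p of 0.299 by edgeR. Without set A it was -0.10 with an unadjusted p of 0.115.

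Nlgn3, which works at both kinds of synapse, had 42.2 to 56.4 CPM in MS (median 46.4) and 44.3 to 57.7 CPM in SR (median 51.7). In MS, 7 of 8 mice lay below the SR median and 1 lay below the lowest SR mouse. The MS mean was 48.1 ± 4.45 CPM and the SR mean 52.0 ± 3.28 CPM, and the log2 fold change was -0.11 (SE 0.049) and an edgeR adjusted p of 0.383. The unadjusted p was 0.0341, and it was 0.202 without set B. A2 had 41.2 CPM, below all other mice. Exons of Nlgn3 share 3823 bases with Gm21986 on the same strand. Gm21986 had 5 to 28 counts per library against 821 to 1365 for Nlgn3. How reads in the shared bases were counted is not given in the sources used here. The level of Nlgn3, in CPM and in TPM, depends on it.

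The other two members differed least. Nlgn2, of inhibitory synapses, had 249 to 287 CPM in MS (median 277) and 268 to 302 CPM in SR (median 282). The groups overlapped in part, with 3 MS mice below the lowest SR mouse and 4 SR mice above the highest MS mouse. Its log2 fold change was -0.05 (SE 0.032, 95% interval -0.12 to 0.01), with an edgeR adjusted p of 0.545. Nrxn2 had 295 to 368 CPM in MS (median 324) and 309 to 361 CPM in SR (median 338). The highest and the lowest mouse were both MS. Its log2 fold change was -0.03 (SE 0.038, 95% interval -0.11 to 0.05), with an edgeR adjusted p of 0.815. A2 had 295 CPM of Nlgn2, inside the range of the other mice, and 375 CPM of Nrxn2, above it. By TPM, Nrxn2 in A2 was 87.0, inside the range of the other mice (68.5 to 90.9). Antisense genes overlap exons of Nlgn1 (A830092H15Rik, at most 40 counts), Nrxn2 (Gm14964, at most 142, and Slc22a12, at most 25) and Nrxn3 (Gm37980, at most 6), and whether counting used the strand is not given in the sources used here.

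**Figure D2:**
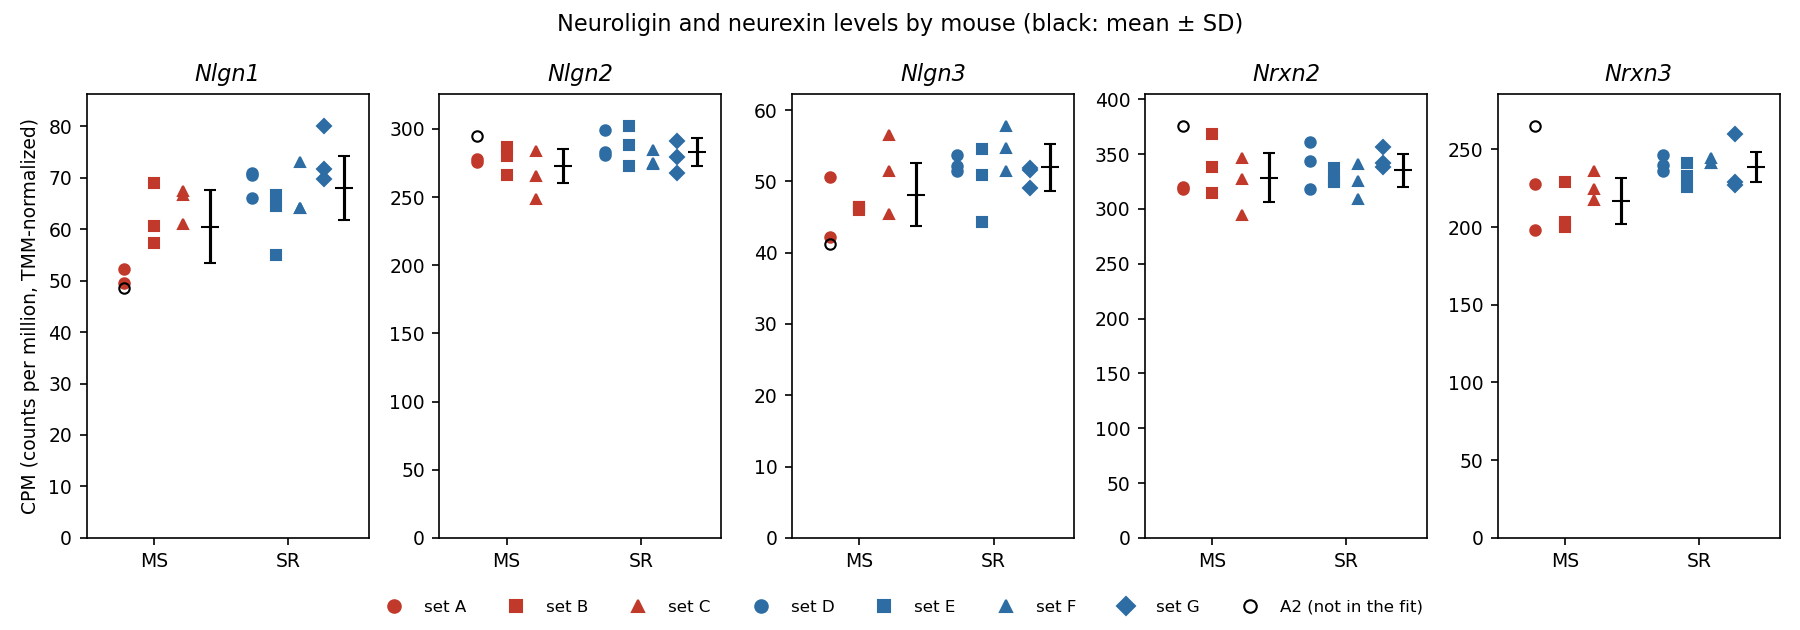
CPM of each member by mouse, with 1 symbol per set, MS in red, SR in blue, A2 as an open circle, and black bars for the mean ± SD of 8 MS and 12 SR mice. For Nrxn3, 5 of 8 MS mice lie below all SR mice, and set A lies lowest for Nlgn1.

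Marker levels and transcript length were read beside these differences. Summed neuronal markers had a median of 3472 CPM in MS (3276 to 3728) and 3649 CPM in SR (3396 to 3967), with 1 of 5 markers lower at an unadjusted p under 0.05, and fewer neurons and less RNA per neuron cannot be told apart in bulk tissue. No marker of granule cells, pyramidal neurons, interneurons, striatal neurons, choroid plexus, astrocytes, oligodendrocytes, microglia or endothelium passed that limit in edgeR, and 0 markers of any list were called at an adjusted p under 0.05. Choroid plexus markers ranged from 51.6 to 4140 CPM in MS (median 3271) and from 27.6 to 4465 CPM in SR (median 825). The members are long transcripts, and of 4699 genes with joined exons as long as theirs (5785 to 13812 bases) 341 were lower and 153 higher in MS at an unadjusted p under 0.05, with a median log2 fold change of -0.02. Of 1379 genes with joined exons of at most 999 bases, 33 were lower and 131 higher. With the length trend of each library as a term, the log2 fold change was -0.13 for Nrxn3 (edgeR adjusted p = 0.192), -0.15 for Nlgn1, -0.11 for Nlgn3, -0.04 for Nlgn2 and -0.01 for Nrxn2. The part of neuronal and choroid plexus content in these differences was not tested.

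Sets and cohorts were then compared. For Nlgn1 the set means were 50.8, 62.3 and 65.0 CPM in A, B and C, and 69.1, 62.0, 67.2 and 73.8 CPM in D to G, and sets within a group differed at an unadjusted p of 0.00484 by edgeR (adjusted p = 0.404). Sets differed at an unadjusted p under 0.05 by edgeR for 9.09% of all genes, and for 0 of the other 4 members (unadjusted p 0.326 to 0.771). For Nrxn3 the set means were 213, 211 and 226 CPM in A to C and 241, 233, 242 and 239 CPM in D to G. Every MS set mean lay below every SR set mean, and how many of all genes separate likewise was not counted. Counts summed by set, with 3 MS and 4 SR sums, gave Nrxn3 a log2 fold change of -0.14 (edgeR unadjusted p = 0.00418, adjusted p = 0.429). The unadjusted p of the set sums by edgeR was 0.0658 for Nlgn1 and 0.0507 for Nlgn3. With sets as the unit, 1 of 5 members passed the unadjusted limit of 0.05, where 3 of 5 did with mice. Over all genes tested, 1753 of 21752 passed it with set sums and 2095 of 18146 with mice.

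Separation effects in the cohorts had the same sign for 4 of 5 members. Nrxn3 had a log2 fold change of -0.17 (SE 0.044) in the first cohort and -0.08 (SE 0.064) in the second, and Nlgn1 had -0.20 (SE 0.070) and -0.18 (SE 0.10). Nlgn3 had -0.17 (SE 0.057) in the first cohort and 0.01 (SE 0.083) in the second. Nlgn2 had -0.04 (SE 0.038) and -0.07 (SE 0.056), and Nrxn2 had -0.00092 (SE 0.047) and -0.10 (SE 0.069). No difference between the cohorts was called by edgeR: the adjusted p lay between 0.624 and 0.987, and 0 members had an unadjusted p under 0.05 (background 8.67%), with the smallest, 0.0856, for Nlgn3. The second cohort holds 1 set per group, so that set and group cannot be told apart in it.

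**Figure D3:**
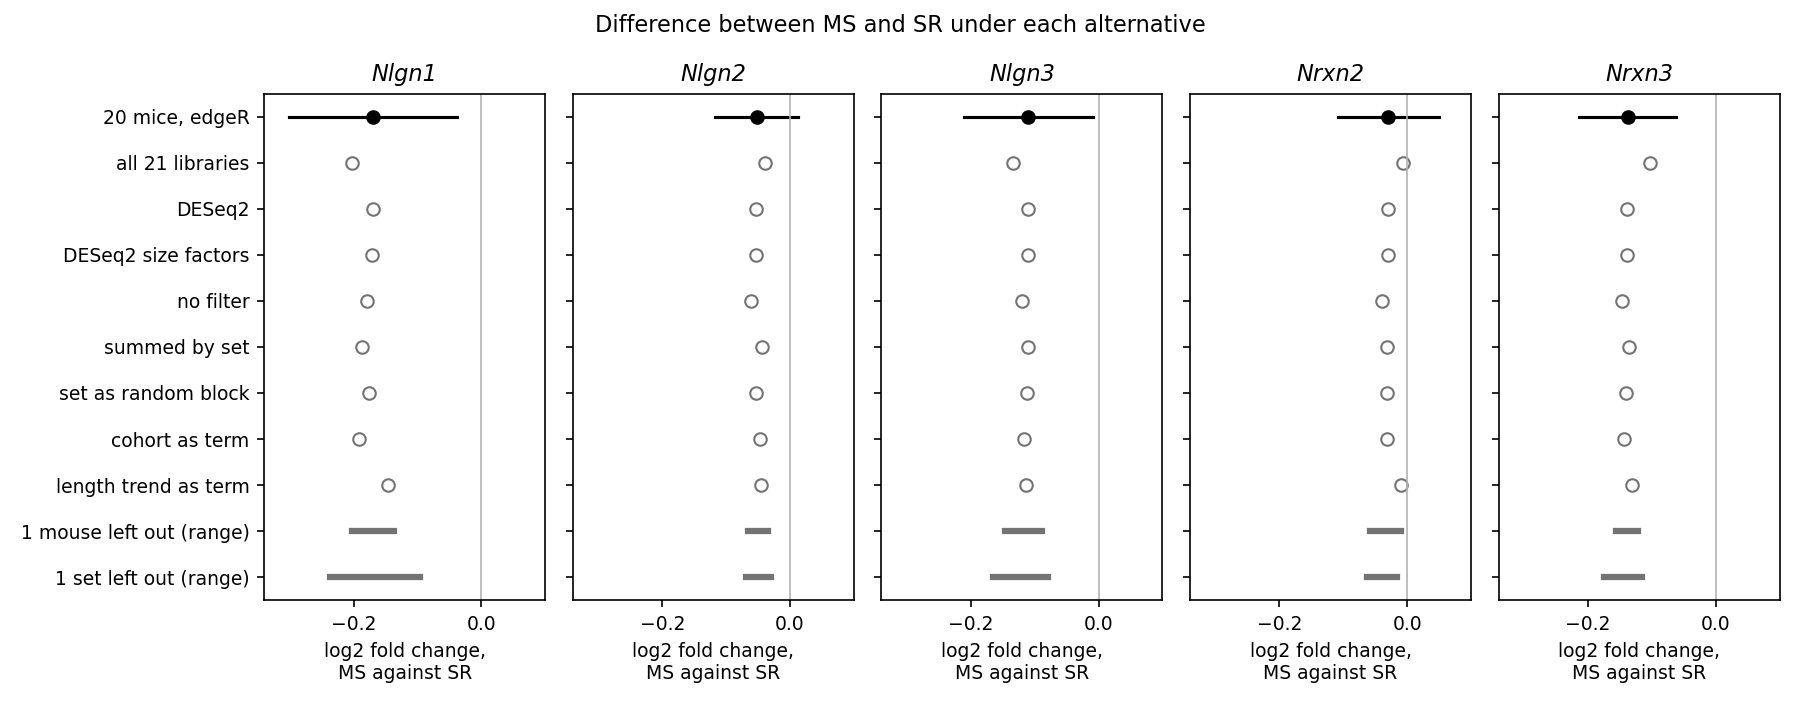
Log2 fold change of MS against SR for each member under the fit of 20 mice (filled, with its 95% interval) and each alternative (open circles, or bars for the range with 1 mouse or 1 set left out). All log2 fold changes drawn lie below 0, while the 95% intervals of Nlgn2 and Nrxn2 reach above 0. Those of Nlgn1 with 1 set left out run from -0.24 to -0.10.

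Among mice of the same group, Nlgn2 and Nrxn2 varied together. Deviations of log2 CPM from the group mean correlated over 20 mice with Pearson's r = 0.673 (permutation p = 0.001, 0.01 adjusted over 10 pairs) and Spearman's rho = 0.65 (permutation p = 0.0026, adjusted 0.026). Without C1 and E3, the mice farthest from the median of Nlgn2, r was 0.707. It was 0.642 over 14 mice of the first cohort (adjusted permutation p = 0.13) and 0.948 over 6 mice of the second (adjusted permutation p = 0.0417). All values are shares of the library total, and neither cell content nor the length trend of each library was held fixed. With that trend, Nrxn2 had r = 0.483 over 20 mice (permutation p = 0.0313, adjusted 0.156) and Nlgn2 r = 0.242. Nlgn1 and Nlgn3 had r = 0.456 (permutation p = 0.0419, adjusted 0.209; rho = 0.278, permutation p = 0.235), and r was 0.0125 without E2 and A1, so the value over 20 mice rests on those mice. It was 0.418 over 14 mice of the first cohort (adjusted permutation p = 0.68) and 0.661 over 6 mice of the second, which hold neither (adjusted permutation p = 0.171). The remaining 8 pairs had r between -0.0584 and 0.224. Nrxn3, the member with the smallest p between groups, had r of at most 0.204 with any other member over the 20 mice. In the second cohort all 10 pairs had r between 0.54 and 0.948, among them Nlgn1 and Nrxn3 at 0.928 (adjusted permutation p = 0.0417), so the value there is not particular to Nlgn2 and Nrxn2. That cohort holds 6 mice of 1 set per group. In it the length trend had r between 0.164 (Nrxn3) and 0.581 (Nrxn2) with each member, and its part in these values was not tested. Values were centred within each group and then permuted over all 6 mice, so permutation p-values of that cohort may be too small.

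**Figure D4:**
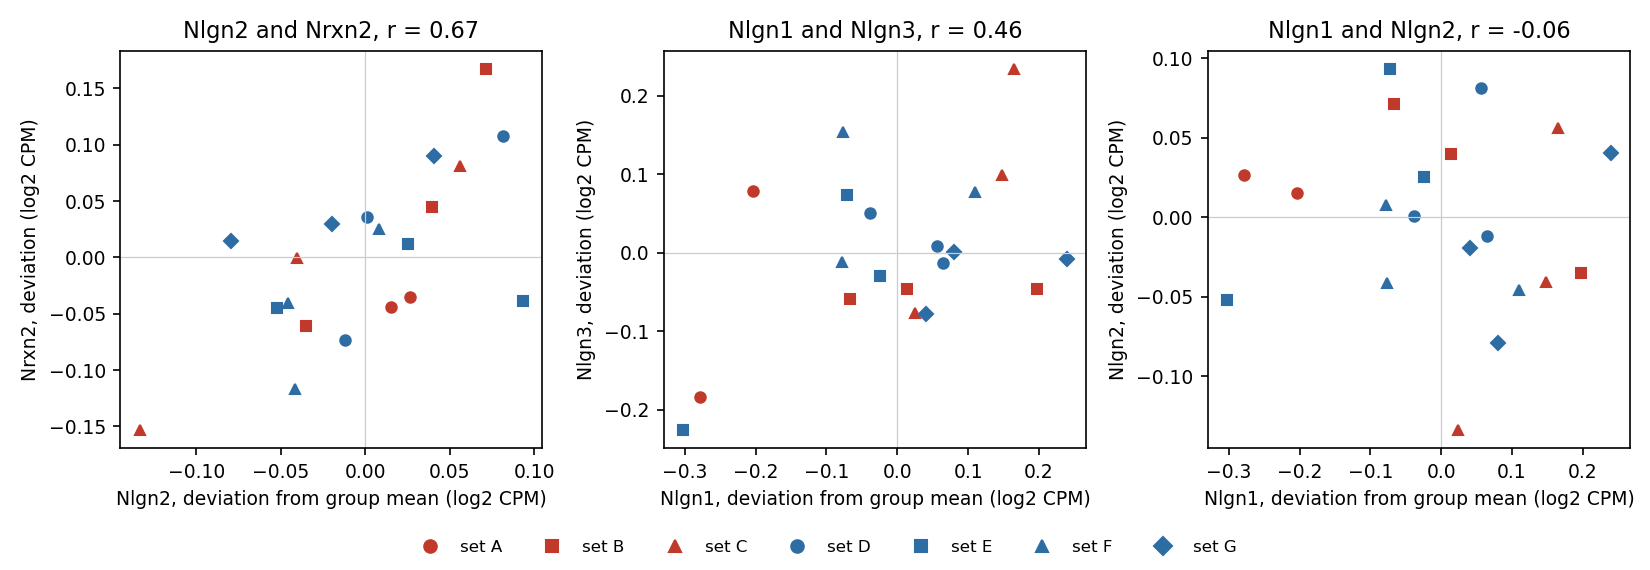
Deviation of each of 20 mice from its group mean (log2 CPM) for 3 pairs of members, with 1 symbol per set, MS in red and SR in blue. The points follow a rising line for Nlgn2 and Nrxn2 (r = 0.67) and show none for Nlgn1 and Nlgn2 (r = -0.06).

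Genes most like each member were read from the same deviations over 18145 other genes, where the highest values are large by selection. Nrxn2 was most like Spock2, a proteoglycan gene (r = 0.918), and Gm9954 (0.814). Nlgn1 was most like Itga4, an integrin subunit (r = 0.871), Tcaim (0.87) and Pcdh19, a protocadherin (0.854). Nlgn3 was most like Sall2, a zinc finger factor (r = 0.863), B3gat1 (0.845) and Syna (0.839). Nlgn2 had Gm7067 (r = 0.814), Upk1a (0.798) and Setd1b, a histone methyltransferase (0.777). Nrxn3 had the lowest such values, with Gm27239 (r = 0.744), Msantd3 (0.72) and Ackr2 (0.708). Nrxn2 ranked 61st for Nlgn2, and Nlgn2 ranked 98th for Nrxn2.

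The genes around the members were listed by role: 98 partner genes in 6 lists, of which 98 were tested. None was called by edgeR at an adjusted p under 0.05. At an unadjusted p under 0.05, 13 were lower in MS (background 4.92%) and 2 higher (background 6.62%), and 77 of 98 had a log2 fold change below 0, with a median of -0.05. These counts are descriptions of lists chosen with earlier results of these data known.

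Ligands of neurexins other than neuroligins held 0 of 20 genes at that limit, with a median log2 fold change of -0.03. The postsynaptic leucine-rich repeat ligands Lrrtm1, Lrrtm2 and Lrrtm4 had -0.02 (SE 0.081), -0.03 (SE 0.057) and -0.0053 (SE 0.078). Secreted cerebellins, which bridge neurexins to postsynaptic receptors, were low and variable: Cbln1 had 7.41 ± 3.79 CPM in MS and 6.79 ± 4.16 CPM in SR, and log2 fold changes were 0.12 (SE 0.41) for Cbln1, 0.13 (SE 0.28) for Cbln2 and 0.10 (SE 0.27) for Cbln4. C1ql3 had -0.11 (SE 0.10), and the neurexophilins Nxph1 and Nxph3, which bind alpha-neurexins, had 0.03 (SE 0.060) and -0.21 (SE 0.20). The calsyntenin Clstn3 had -0.05 (SE 0.038). The smallest p was for Adgrl1, a latrophilin, at -0.07 (SE 0.037, edgeR adjusted p = 0.507).

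Partners and inhibitors of neuroligins had 10 of 10 log2 fold changes below 0, with a median of -0.04, and 3 at an unadjusted p under 0.05. Gphn, which encodes the inhibitory scaffold gephyrin, had 65.5 ± 5.45 CPM in MS and 71.1 ± 3.77 CPM in SR, at -0.12 (SE 0.044, edgeR adjusted p = 0.289). Magi2, a scaffold that binds neuroligins, had -0.12 (SE 0.040, adjusted p = 0.244). Dlg4, the gene of the excitatory scaffold PSD-95, had -0.07 (SE 0.047). Lhfpl4, which links neuroligin 2 to GABA receptors, had -0.04 (SE 0.030), and the inhibitors Mdga1 and Mdga2, which block neurexin binding, had -0.04 (SE 0.14) and -0.02 (SE 0.056).

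Inside the presynaptic terminal, 8 partners of neurexins had a median of -0.09. Syt1, the calcium sensor of vesicle release, had 1211 ± 70.3 CPM in MS and 1327 ± 54.6 CPM in SR, at -0.13 (SE 0.038). Its adjusted p was 0.182 by edgeR and 0.0258 by DESeq2, which called 1 of the 98 partners and 0.966% of all genes. The adaptor Apba1 had -0.12 (SE 0.059, edgeR adjusted p = 0.420) and Apba2 -0.12 (SE 0.036, adjusted p = 0.212), whereas Lin7c, of the same scaffold complex as Cask, had 0.12 (SE 0.049, adjusted p = 0.354) and Cask -0.07 (SE 0.045).

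Regulators of neurexin splicing had 0 of 10 genes at an unadjusted p under 0.05. Khdrbs2 and Khdrbs3, RNA-binding proteins that act on neurexin exons, had -0.08 (SE 0.084) and 0.01 (SE 0.047), and Nova2 had the smallest p of the list at -0.08 (SE 0.043, edgeR adjusted p = 0.475). Of 6 proteases, Adam10, which sheds neuroligins and neurexins, had 0.03 (SE 0.043), Bace1, the beta-secretase, had -0.09 (SE 0.033, adjusted p = 0.319) and Adam17 had 0.13 (SE 0.056, adjusted p = 0.375). Of 44 other trans-synaptic adhesion genes, 36 had a log2 fold change below 0 and 6 passed the unadjusted limit, all lower in MS (Tenm2, Cadm3, Ncam1, Lrrc4, Ntrk3 and Slitrk1). Tenm2, a teneurin that binds latrophilins, had 171 ± 15.5 CPM in MS and 195 ± 18.0 CPM in SR, at -0.18 (SE 0.058, edgeR adjusted p = 0.217).

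**Figure D5:**
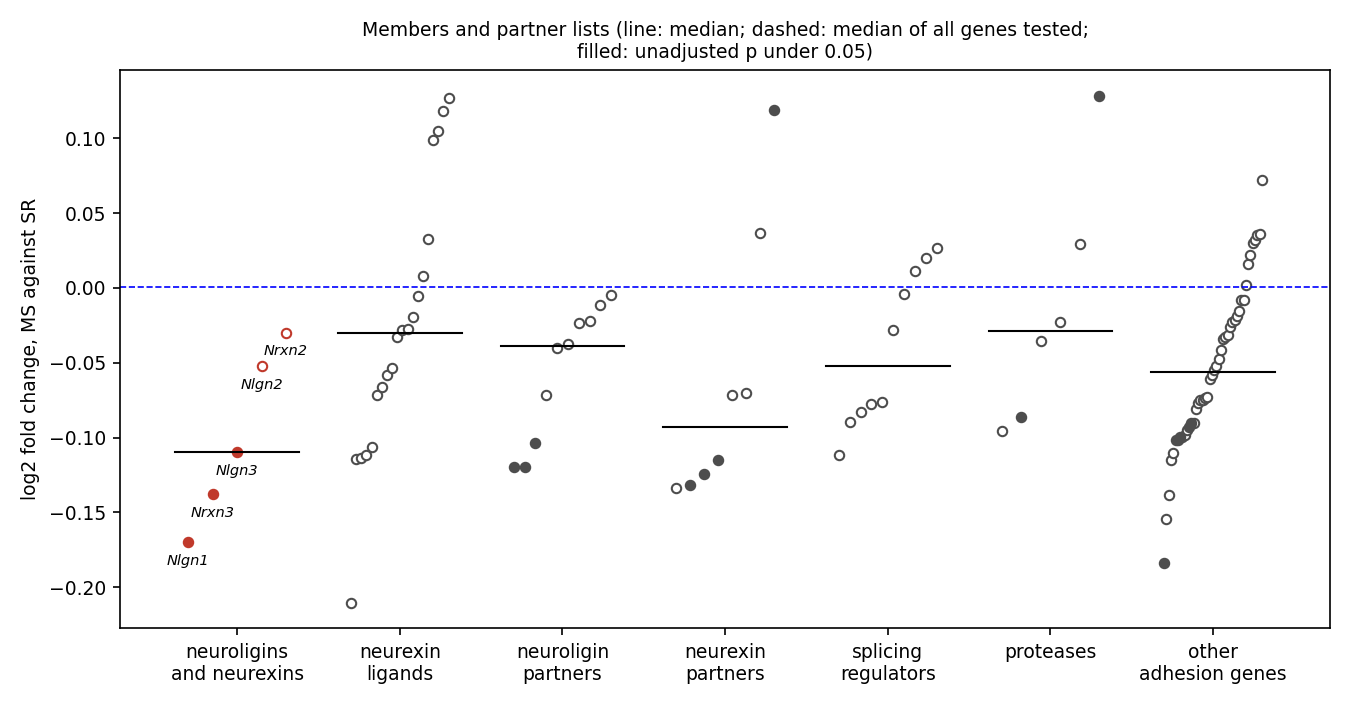
Log2 fold change of MS against SR for the 5 members (red) and 98 partner genes in 6 lists, with the list's median as a line, the median of all genes as a dashed line and filled points for an unadjusted p under 0.05. Members lie between -0.17 and -0.03, and all neuroligin partners lie below 0.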

How the data were processed

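The authors aligned paired-end reads of poly-A RNA (NEBNext Ultra II Directional kit, NovaSeq6000) to GRCm38 with STAR 2.7.3a, assigned them to Ensembl genes with featureCounts and deposited the raw counts, neither normalized nor filtered. Columns belonging to no sample numbered 0. The members and lists were chosen with earlier results of these data known.

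Counts were filtered (filterByExpr, minimum count 10), normalized by TMM and tested with edgeR 4.0.16 (quasi-likelihood, robust; R 4.3.3), with Benjamini-Hochberg adjustment over 18146 genes calling genes at an adjusted p under 0.05. A negative log2 fold change is lower in MS, and log2 CPM used a prior count of 2. Correlations used 100000 permutations, or all orders for 6 mice. Values were centred within group first and permuted over mice of both groups, so these p-values may be too small, most of all for 6 mice. Mouse A2 was left out because it stood apart in earlier work; the paper removed 1 library without naming it. Partners were named by role, plus the smallest p of each list. Other partners at an unadjusted p under 0.05 were named after their values were seen; for each member, the 3 genes of highest r were named. Some genes that these rules select are not reported here. Symbols, positions and exon lengths are those of GENCODE M21. Alternatives were all 21 libraries, DESeq2 1.42.0, its size factors, no filter, set sums, limma 3.58.1 voom with set as a random block, cohort and length terms, and leaving out each mouse or set. Total counts (median 21801385) bound precision, and p-values measure the spread between mice. Computations were checked on simulated data. There the MS against SR test recovered 46 of 100 genes changed 1.3-fold and 91 of 100 changed 2-fold, with 11 unchanged genes called. The cohort interaction test recovered 42 of 98 genes changed 1.69-fold. The members differed by less than these folds, so the absence of a call does not show that they were unchanged.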

Additional observations from a re-analysis of the deposited data

Results flagged for a closer look

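Among 32 genes checked over the 8 MS mice, 1 had a mouse far from the rest. Adam10, which sheds neuroligins and neurexins, had 92.3 CPM in the MS mouse C3, where the next highest mouse had 78.4 CPM and the lowest 73.8 CPM. The gap made up 0.752 of the range, above the critical value of 0.526 for 8 mice. Chance alone flags about 1 in 20 groups.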

How the results depend on the processing

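No sign of a member's difference reversed under any alternative run, and no member other than Nrxn3 was called in any of them. The separate cohorts are not among these alternatives, and Nlgn3 had 0.01 (SE 0.083) in the second cohort. Nrxn3 was called by DESeq2 (-0.14, adjusted p = 0.0312, and 0.0333 with its filtering at 0.1, chosen after seeing the data) and by edgeR without C2 or without set C, and the cause was not tested. Its log2 fold change lay between -0.16 and -0.12 with 1 mouse left out and between -0.17 and -0.12 with 1 set left out, and its edgeR adjusted p over these fits between 0.0256 and 0.492. With 1 mouse or set left out, Nlgn1 lay between -0.24 and -0.10, Nlgn2 between -0.07 and -0.03, Nlgn3 between -0.17 and -0.08 and Nrxn2 between -0.06 and -0.01.

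Over all genes, edgeR called 2, 1 with all 21 libraries, 1 with no filter and 0 with counts summed by set (1753 at an unadjusted p under 0.05); DESeq2 called 134, or 119 with filtering at 0.1. Leaving out 1 mouse gave 0 to 109 (109 without C2 and 109 without C3), and leaving out 1 set 0 to 340 (340 without set C). Partner genes at an unadjusted p under 0.05 numbered 15, with 11 to 26 when 1 mouse was left out (26 without C2), 8 to 27 when 1 set was left out (8 without A, 27 without C) and 12 to 19 otherwise. Pairs of members past the adjusted threshold numbered 1 over 20 mice, 0 in the first cohort and 2 in the second, where permutation p-values may be too small. No paired analysis was possible because the labels give no replicate numbers shared by MS and SR. Each member had at least 821 counts in every library. The coefficient of variation of CPM over the 20 mice lay between 4.34% (Nlgn2) and 11.4% (Nlgn1). The biological coefficient of variation was 13.3% over all genes, which is not the spread of the members. The part of counting error in the members' spread was not tested.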
